A study of Mus musculus with 7 samples.

Results

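CD31 and CD34 are the 2 proteins of the panel that mark the endothelium, and they are described here among the 25 target proteins measured in each region. They were picked by name, with earlier results of these data known, and the rule for their choice reads no measured value. Their deposited counts were read as log2 ratios to the geometric mean of the 3 negative-control antibodies of the same region. A log2 ratio of 0 therefore means no signal above non-specific antibody binding. The panel's own target groups list CD31 as endothelial and CD34 as hematopoietic.

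Brain sections came from 7 PDAPP mice, which carry a human amyloid precursor protein transgene and deposit amyloid in vessel walls. All were treated from 23 to 26 months of age by subcutaneous injection. The 3 IgG mice received a control antibody (IgG2a, 50 mg/kg, 2 injections per week) and the 4 3D6 mice received an antibody against Aβ (IgG2b, 25 mg/kg, 1 injection per week). Dose, schedule and isotype differ between the groups together with the target of the antibody, and these cannot be told apart. The mice belong to 1 inbred line of both sexes, and the titles of the IgG samples call them untreated while their other labels name IgG. Each mouse gave 12 circular regions of 100 μm in the leptomeninges (regions 1 to 12) and 12 on penetrating vessels (regions 13 to 24), all placed on vascular amyloid that was seen by staining for Aβ and laminin. Values exist for 166 of 168 regions, and the 2 without values are leptomeningeal regions of IgG mouse 37. Sections were 5 μm thick by the labels but 10 μm thick by the study's methods.

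CD31, also called PECAM-1 (gene Pecam1), is an adhesion molecule that sits at the contacts between endothelial cells, where it helps hold the vessel lining together and guides leukocytes across it. Platelets and many leukocytes carry it as well. CD34 (gene Cd34) is a sialomucin on the luminal face of endothelial cells and on blood progenitor cells, where it takes part in adhesion. SMA is the smooth muscle actin that marks the muscular layer outside the endothelium, and it serves as the third vessel wall protein of the panel. Small arteries of the leptomeninges and their penetrating branches have all these layers, and capillaries lack the muscular layer.

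Total counts ranged from 2571 to 254884 per region. The median number of nuclei per region was between 11 and 36.5 in 5 mice and between 94 and 111.5 in IgG mouse 29 and 3D6 mouse 72, which form 1 of the 3 readout runs. A warning for few nuclei was set by the authors for 43 of the 166 regions. In 6 regions, all of IgG mouse 37, the negative controls exceeded 10 times their median.

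Both proteins exceeded the negative controls in every region. CD31 counts ran from 25.2 to 16110.2 with a median of 278.0, and CD34 counts from 34.5 to 14026.2 with a median of 220.2. Each protein was above 2 times the geometric mean of the negative controls, and above the highest of the 3, in 166 of 166 regions. SMA met the same rule in 166 of 166, and the remaining targets were not counted, so the rule does not set CD31 and CD34 apart. More endothelium in a region and more protein per endothelial cell cannot be told apart in these counts.

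CD31 was the more variable of the pair between conditions. It was highest in the leptomeninges of 3D6 mice, and the other 3 conditions lay close together. In the leptomeninges of the IgG mice the mean log2 ratio of CD31 was 4.17 in mouse 29, 3.86 in mouse 37 and 3.62 in mouse 49. In 3D6 mice it was 3.96 in mouse 72, 5.43 in mouse 77, 4.87 in mouse 81 and 5.09 in mouse 83. Mice 77, 81 and 83 thus exceeded all of the IgG mice, while mouse 72 fell within the IgG range.

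The group means of leptomeningeal CD31 were 3.88 ± 0.27 (SD, n = 3 mice) and 4.84 ± 0.63 (SD, n = 4 mice), which is 14.8 and 28.6 times the negative controls. The difference of 0.95 on the log2 scale (1.94-fold) had a 95% interval of 0.09 to 1.81 and did not pass the threshold of 0.05 (exact permutation p = 0.0857, limma adjusted p over 25 proteins = 0.0923). The background is 5 of 25 proteins past that threshold at this site (20%), 4 higher and 1 lower, and 10 at an unadjusted p under 0.05. Within the 3 runs CD31 differed by 1.35, 1.57 and -0.20. The run with the negative value is that of mice 29 and 72, and without mouse 72 the difference was 1.24 and passed (adjusted p = 0.0313 from limma). Without any other single mouse it was 0.76 to 1.10 and missed the threshold (adjusted p of 0.108 to 0.222 from limma).

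The negative controls themselves were lower in the leptomeninges of 3D6 mice, with a mean log2 count of 3.84 against 4.46 in IgG mice (exact permutation test, p = 0.0571). The median of all 25 proteins accordingly differed by 0.57 between the groups. CD31 lay 0.38 above this median, a distance that no choice of scaling alters. Without normalization CD31 differed by 0.34 and with division by the housekeepers by 0.11. Neither passed, and with the housekeepers the panel's calls became 2 higher and 4 lower.

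CD34 showed no such order of the mice. Its log2 ratio in the leptomeninges was 4.35, 4.08 and 2.49 in IgG mice 29, 37 and 49. For 3D6 mice 72, 77, 81 and 83 it was 3.34, 4.45, 3.12 and 4.34. The groups overlapped over most of their range, and the lowest value of all was that of IgG mouse 49. The difference between groups was 0.17 (95% interval -0.98 to 1.32, exact permutation p = 0.886, limma adjusted p = 0.791). Relative to the median of the 25 proteins CD34 stood at -0.40. Within the runs it differed by 1.24, 0.36 and -1.01. The sign turned without IgG mouse 49 (-0.40), 3D6 mouse 77 (-0.04) or 3D6 mouse 83 (-0.003), and also without normalization (-0.44) and with division by the housekeepers (-0.67).

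**Figure D1:**
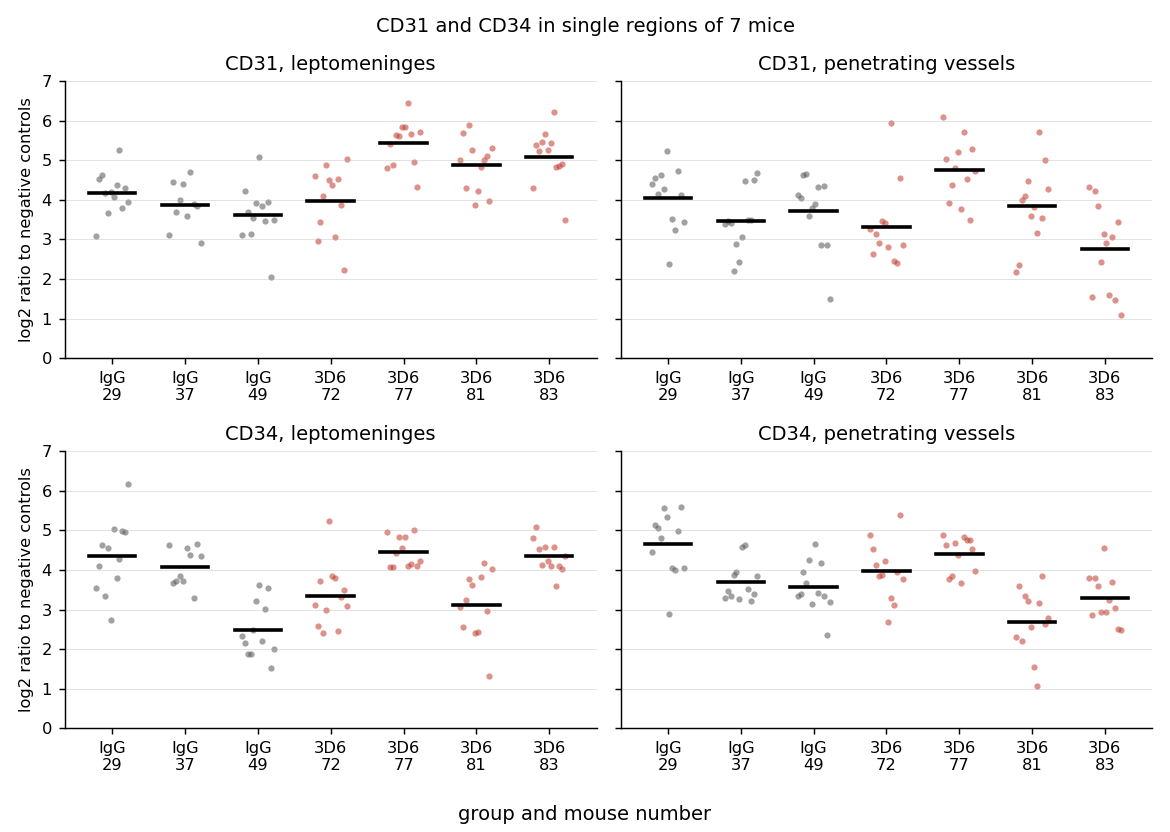
Log2 ratio of CD31 (top) and CD34 (bottom) to the negative controls in every region of 3 IgG mice (grey) and 4 3D6 mice (red), in the leptomeninges and on penetrating vessels. Each point is a region and each black bar the mean of a mouse. In the leptomeninges, the CD31 means of 3D6 mice 77, 81 and 83 lie between 4.87 and 5.43, above the IgG means of 3.62 to 4.17, while CD34 means overlap at both sites.

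On penetrating vessels neither protein separated the groups. CD31 was 4.06, 3.46 and 3.72 in IgG mice 29, 37 and 49, and 3.32, 4.75, 3.85 and 2.75 in 3D6 mice 72, 77, 81 and 83. The 3D6 mice spread both above and below the IgG mice, with group means of 3.74 ± 0.30 (SD, n = 3) and 3.67 ± 0.85 (SD, n = 4). The difference was -0.07 (95% interval -1.12 to 0.97, adjusted p = 0.911 from limma), against a background of 0 of 25 proteins called (0%; 2 at an unadjusted p under 0.05). Within the runs it was -0.41, 1.29 and -0.74, and it turned positive without IgG mouse 29 (0.08), 3D6 mouse 72 (0.04) or 3D6 mouse 83 (0.23).

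CD34 on penetrating vessels was 4.66, 3.70 and 3.58 in the IgG mice and 3.97, 4.39, 2.69 and 3.29 in the 3D6 mice, in the same order. Mice 81 and 83 lay below every IgG mouse and the other 3D6 mice lay within the IgG range. The difference was -0.39 (95% interval -1.44 to 0.66, exact permutation p = 0.486, limma adjusted p = 0.802). It came close to 0 without IgG mouse 29 (-0.05) or 3D6 mouse 81 (-0.09), and was largest in size without 3D6 mouse 77 (-0.66). With intervals of this width, changes of about 2-fold in either protein on penetrating vessels were not detectable with 7 mice.

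**Figure D2:**
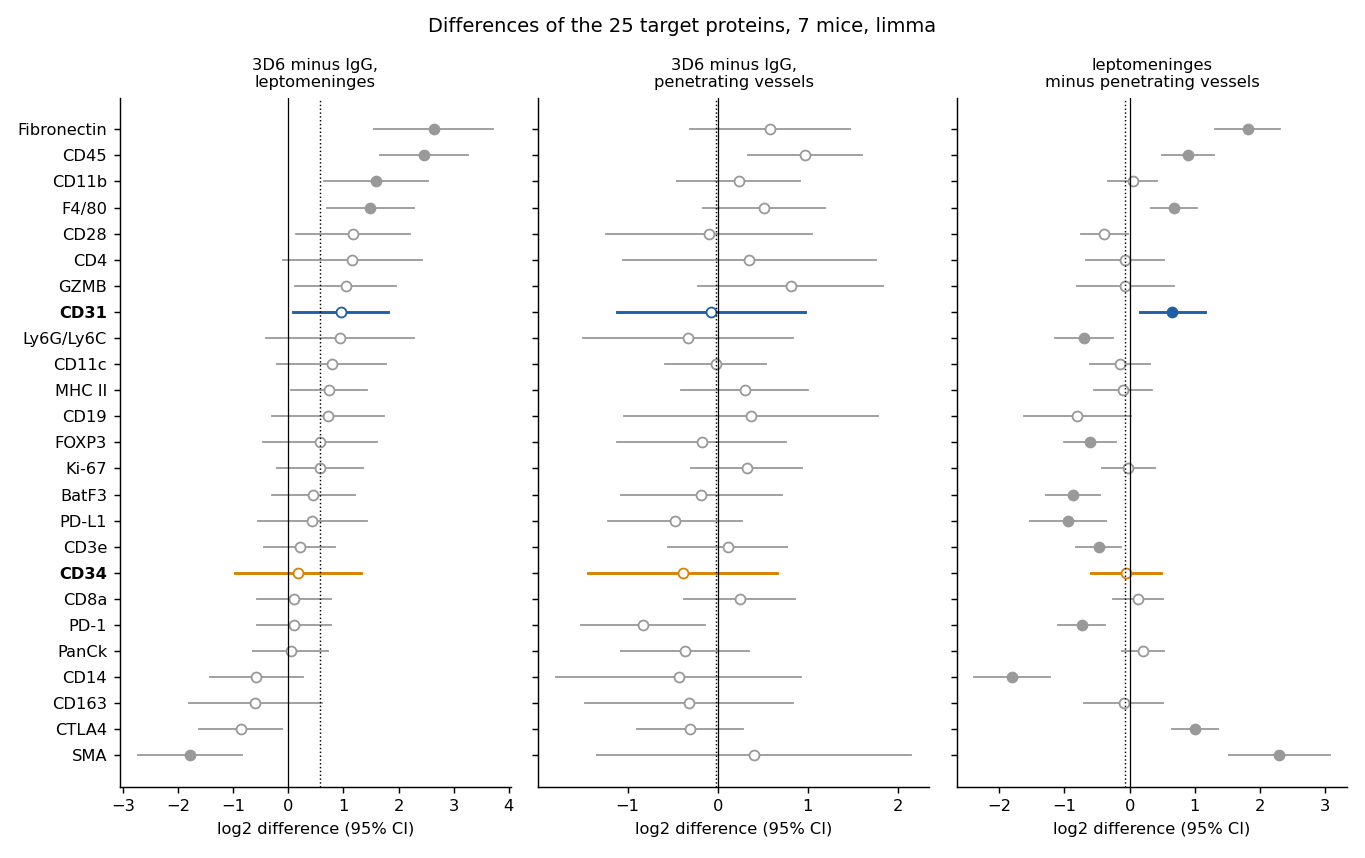
Log2 differences of the 25 target proteins with 95% intervals from limma (7 mice) for 3D6 minus IgG in the leptomeninges, 3D6 minus IgG on penetrating vessels, and leptomeninges minus penetrating vessels. CD31 is blue and CD34 orange, filled circles passed an adjusted p of 0.05 and dotted lines mark the median protein. CD31 stands 8th from the highest of 25 in the leptomeninges and CD34 18th, and CD31 is filled only in the comparison of the sites.

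The question whether treatment acted on the endothelial proteins differently at the 2 sites was tested on the difference between the sites in each mouse. Leptomeningeal minus penetrating CD31 was 0.11, 0.40 and -0.09 in IgG mice 29, 37 and 49. It was 0.65, 0.68, 1.02 and 2.33 in 3D6 mice 72, 77, 81 and 83. Every 3D6 mouse lay above every IgG mouse, an order that 10 of the 25 proteins (40%) showed. The treatment difference was 1.03 larger in the leptomeninges (95% interval 0.04 to 2.02) but missed the threshold (exact permutation p = 0.0857, limma adjusted p = 0.120), with 7 of 25 proteins called (28%). It was 1.77, 0.28 and 0.53 within the 3 runs and 0.14 with division by the housekeepers. Without 3D6 mouse 83 it was 0.64.

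For CD34 the same difference between sites was -0.31, 0.39 and -1.09 in the IgG mice and -0.63, 0.05, 0.43 and 1.05 in the 3D6 mice. The groups overlapped. The treatment difference was 0.56 larger in the leptomeninges (95% interval -0.51 to 1.64, adjusted p = 0.394 from limma) and turned to -0.32 with division by the housekeepers. It was 0.19 without IgG mouse 49, 0.29 without 3D6 mouse 83, 0.85 without 3D6 mouse 72 and 0.93 without IgG mouse 37.

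Averaged over both groups, CD31 was higher in the leptomeninges than on penetrating vessels, in 6 of 7 mice. The mean difference was 0.66 on the log2 scale (1.58-fold, standard error 0.22), which passed (adjusted p = 0.0280 from limma; exact sign-flip permutation test, p = 0.0312). This was a common result, since 13 of the 25 proteins (52%) passed, 6 higher and 7 lower in the leptomeninges. With the housekeepers 7 were higher and 1 lower. In the control group CD31 differed between the sites by 0.14 ± 0.25 (SD, n = 3), and in the 3D6 group by 1.17 ± 0.79 (SD, n = 4), so most of the mean came from the treated mice. Without any 1 of the IgG mice it no longer passed (0.66, 0.59 and 0.71 without mouse 29, 37 and 49; adjusted p = 0.0715, 0.0528 and 0.0568 from limma). It also missed without regions of few nuclei (0.46, adjusted p = 0.177 from limma), which removes mouse 37 from the leptomeninges, and when the run was blocked (0.62, limma adjusted p = 0.0813).

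CD34 did not follow CD31 between the sites. It was higher in the leptomeninges in 4 of 7 mice, and the mean difference was -0.06 (95% interval -0.59 to 0.48, adjusted p = 0.885 from limma; exact sign-flip permutation test, p = 0.859). Its sign turned without IgG mouse 49 (0.13) or 3D6 mouse 72 (0.09) and with division by the housekeepers (0.47). SMA, by comparison, was 4.91 times as high in the leptomeninges (difference 2.30, adjusted p = 0.00054 from limma), in 7 of 7 mice. Of the 3 vessel wall proteins, 2 thus passed as higher in the leptomeninges and 0 as lower. Among all 25 proteins 13 (52%) passed, 6 higher and 7 lower. The median difference of the 3, 0.66, is the value of CD31 itself, beside -0.07 over all 25 proteins.

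Ranked by group mean, CD31 stood at 4.84 in the leptomeninges of 3D6 mice, 3.88 in those of IgG mice, 3.74 on penetrating vessels of IgG mice and 3.67 on those of 3D6 mice. The last 3 levels differed by less than the SD between mice. For CD34 the order was 3.98 on penetrating vessels of IgG mice, 3.81 and 3.64 in the leptomeninges of 3D6 and IgG mice, and 3.59 on penetrating vessels of 3D6 mice. Each step of that order was smaller than the SD between mice, which was 0.59 to 1.01.

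**Figure D3:**
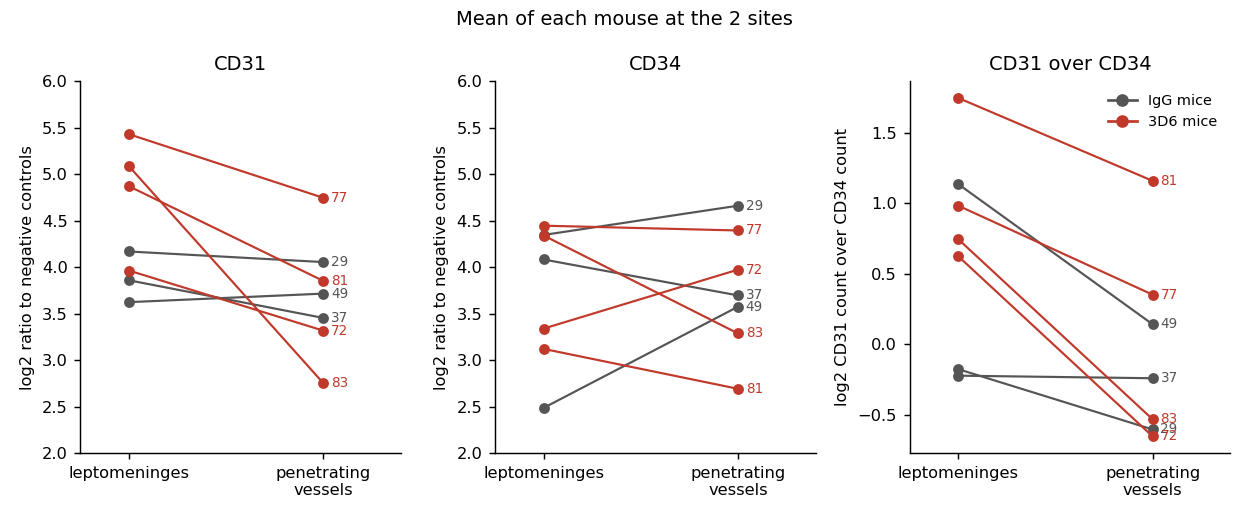
Mean log2 ratio of CD31 (left) and CD34 (middle) to the negative controls, and mean log2 ratio of the CD31 count to the CD34 count (right), for each mouse at the 2 sites. Lines join the sites of a mouse (IgG grey, 3D6 red, mouse number at the right end). CD31 falls from the leptomeninges to the penetrating vessels in 6 of 7 mice, CD34 in 4 of 7, and the ratio of CD31 to CD34 in 7 of 7.

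Because the negative controls cancel in the ratio of 2 proteins from the same region, CD31 and CD34 were also compared directly. These ratios depend on the strength of each antibody, so only their differences between conditions have a meaning. In the leptomeninges log2 CD31 over CD34 was -0.18, -0.22 and 1.14 in IgG mice 29, 37 and 49. For 3D6 mice 72, 77, 81 and 83 it was 0.62, 0.98, 1.75 and 0.74. The IgG mouse 49, with little CD34, lay among the 3D6 mice. The difference of 0.78 between the groups did not pass (exact permutation test, p = 0.229, adjusted p = 0.343 over 9 tests of ratios). Without IgG mouse 49 it was 1.23.

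On penetrating vessels the same ratio was -0.61, -0.24 and 0.14 in the IgG mice and -0.66, 0.35, 1.16 and -0.53 in the 3D6 mice. Mice 77 and 81 lay above the IgG range, mouse 72 just below it and mouse 83 within it (difference 0.32, exact permutation test, adjusted p = 0.707; -0.0438 without 3D6 mouse 81). Between the sites CD31 over CD34 was higher in the leptomeninges in 7 of 7 mice, with means of 0.48 ± 0.49 (SD, n = 3) for IgG and 0.94 ± 0.39 (SD, n = 4) for 3D6. Of 24 proteins set against CD34 in this way, 3 (12.5%) were higher in all 7 mice. The mean of 0.71 (1.64-fold) had the smallest p that 7 mice allow (exact sign-flip permutation test, p = 0.0156), and after adjustment over the 9 tests it did not pass (adjusted p = 0.0643).

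The ratios of both endothelial proteins to SMA separated the groups in the leptomeninges, but after adjustment neither difference passed. Log2 CD31 over SMA was -5.62, -5.54 and -6.16 in the IgG mice and -3.69, -1.60, -3.04 and -3.78 in the 3D6 mice, without overlap. The difference was 2.74 (6.70-fold), and 1.97 (3.90-fold) for CD34 over SMA, both at the smallest p of the design (exact permutation test, p = 0.0286, adjusted p = 0.0643). Within the runs it was 2.75, 3.94 and 1.93 for CD31 and 2.64, 2.74 and 1.13 for CD34. This separation was not particular to the endothelial proteins, since 21 of 24 proteins (87.5%) were higher relative to SMA in every 3D6 mouse than in every IgG mouse. SMA itself had fallen there by 1.79.

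On penetrating vessels CD31 over SMA differed by -0.48 and CD34 over SMA by -0.79 (exact permutation test, adjusted p = 0.743 and 0.661), with overlapping groups. Both signs turned without IgG mouse 37, to 0.32 and 0.0067, and that of CD31 over SMA also without 3D6 mouse 83 (0.04). CD34 over SMA was lower in the leptomeninges than on penetrating vessels in 7 of 7 mice, with a mean difference of -2.35, as 16 of 24 proteins (66.7%) were (exact sign-flip permutation test, p = 0.0156, adjusted p = 0.0643). CD31 over SMA was lower there in 4 of 7 mice, with a mean difference of -1.64 (exact sign-flip permutation test, adjusted p = 0.225). The mean over all mice covered unlike groups, with -3.25 ± 1.22 (SD, n = 3) for IgG, where 3 of 3 mice were negative, and -0.03 ± 1.07 (SD, n = 4) for 3D6, where 3 of 4 were positive. For CD34 over SMA the group means were -3.73 ± 0.78 (SD, n = 3) and -0.97 ± 1.28 (SD, n = 4). These differences between the groups were not tested.

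The regions of a mouse covered a wide range. In both groups the SD of CD31 over the regions of a mouse, pooled, was larger than that between mice at both sites. For IgG it was 0.62 against 0.27 in the leptomeninges and 0.83 against 0.30 on penetrating vessels. For 3D6 it was 0.71 against 0.63 and 0.99 against 0.85. In the leptomeninges CD31 ran from 2.05 to 5.25 over the 34 IgG regions (median 3.91) and from 2.24 to 6.46 over the 48 3D6 regions (median 4.93). On penetrating vessels it ran from 1.50 to 5.24 (36 regions, median 3.85) and from 1.10 to 6.10 (48 regions, median 3.57). The SD of CD31 over the regions of a mouse was larger on penetrating vessels than in the leptomeninges in 7 of 7 mice. Pooled within mice, it was 0.62 and 0.71 in the leptomeninges of IgG and 3D6 mice, against 0.83 and 0.99 on penetrating vessels.

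CD34 did not show this. Its SD over regions was larger on penetrating vessels in 3 of 7 mice, with pooled values of 0.74 and 0.63 in the leptomeninges of IgG and 3D6 mice and 0.64 and 0.68 on penetrating vessels. CD34 ran from 1.51 to 6.18 and from 1.33 to 5.25 in the leptomeninges of IgG and 3D6 mice, and from 2.37 to 5.60 and from 1.06 to 5.40 on their penetrating vessels.

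From region to region the 2 endothelial proteins were weakly related in the leptomeninges, and their pooled r was higher on penetrating vessels. Relations are given as Pearson's r, with each log2 ratio taken as its deviation from the mean of its mouse at that site. They are descriptions, since regions of a mouse share a section and all proteins of a region share the negative controls. For CD31 with CD34, r was 0.19 over 34 leptomeningeal regions of IgG mice and 0.18 over 48 of 3D6 mice. On penetrating vessels it was 0.44 over 36 regions of IgG mice and 0.31 over 48 of 3D6 mice. With the housekeepers held constant, r was 0.28 and 0.22 in the leptomeninges of IgG and 3D6 mice, and 0.16 and 0.35 on penetrating vessels. In IgG mice the order of the sites thus turned, and the difference between the sites was not tested.

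Within single mice the relation of CD31 with CD34 had no fixed sign in the leptomeninges. There r was -0.02, -0.39 and 0.68 in IgG mice 29, 37 and 49, and -0.03, -0.10, 0.60 and 0.14 in 3D6 mice 72, 77, 81 and 83. On penetrating vessels all 7 values were positive, from 0.13 in mouse 37 to 0.84 in mouse 29. Single mice set the pooled values in part. Without mouse 49 the r of IgG leptomeninges was -0.13, without mouse 81 that of 3D6 leptomeninges was -0.005, and without mouse 29 that of IgG penetrating vessels was 0.20.

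Over the pooled regions of a set, the counts of both proteins were positively related to the negative controls of the same region. This bears on any relation computed without normalization. The log2 count of CD31 had an r with the negative controls of 0.76 and 0.46 in the leptomeninges of IgG and 3D6 mice and 0.92 and 0.55 on penetrating vessels. For CD34 these were 0.60, 0.12, 0.94 and 0.55. In counts the r of CD31 with CD34 was 0.92 on penetrating vessels of IgG mice, and 0.48 when the negative controls were held constant. The IgG sets include the 6 regions of mouse 37 with high negative controls. Of these, 5 lie on penetrating vessels, at 503.7 to 1429.2 counts. Their part in the IgG values was not tested.

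**Figure D4:**
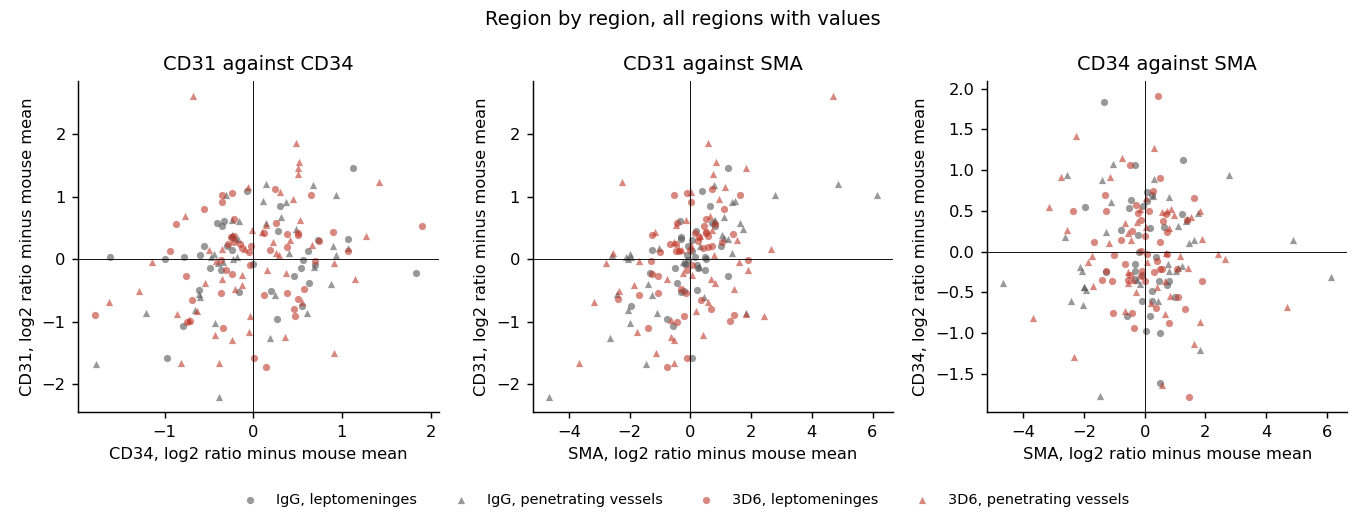
CD31 against CD34 (left), CD31 against SMA (middle) and CD34 against SMA (right) in 166 regions, as log2 ratios to the negative controls minus the mean of the mouse at that site. Colours give the group and symbols the site. CD31 rises with SMA (r of 0.30 to 0.73 in the 4 sets of group and site), while CD34 does not (r of -0.26 to 0.13).

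CD31 also rose with SMA, in each of the 4 sets. The r of CD31 with SMA was 0.46 in the leptomeninges of IgG mice, 0.30 in those of 3D6 mice, 0.73 on penetrating vessels of IgG mice and 0.41 on those of 3D6 mice. SMA was the first or second of 27 proteins by r with CD31 in each of the 4 sets. Within single mice, r was positive in 14 of 14 sets of mouse and site, from 0.01 in the leptomeninges of 3D6 mouse 81 to 0.85 on penetrating vessels of IgG mouse 37, with a median of 0.52. SMA was the only 1 of 24 targets positive with CD31 in all 14. With the negative controls held constant r was 0.47, 0.34, 0.75 and 0.43 in the same order of the sets, and with the housekeepers held constant 0.50, 0.30, 0.70 and 0.40.

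Among the immune proteins, CTLA4, an inhibitory receptor of T cells, had an r with CD31 of 0.35 in the leptomeninges of IgG mice, 0.02 in those of 3D6 mice, and 0.65 and 0.58 on penetrating vessels of IgG and 3D6 mice. It was positive in 11 of 14 sets of mouse and site. In the leptomeninges of IgG mice the 3 highest were CD11c, an integrin of dendritic cells (0.50), SMA and the proliferation antigen Ki-67 (0.42). In those of 3D6 mice they were SMA, MHC II (0.25), which presents antigen, and CD34.

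On penetrating vessels of IgG mice SMA was followed by Histone H3, a housekeeper of the panel (0.66), and CTLA4. On those of 3D6 mice CTLA4 and SMA were followed by CD163, a scavenger receptor of macrophages (0.37). CD31 rose with the number of nuclei on penetrating vessels of IgG mice (r of 0.48, positive in 3 of 3 mice) and less in the other sets (0.16 and -0.12 in the leptomeninges of IgG and 3D6 mice, 0.26 on penetrating vessels of 3D6 mice).

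The lowest r values with CD31 were modest. In the leptomeninges of 3D6 mice they were those of CD8a, the co-receptor of cytotoxic T cells (-0.32, negative in 4 of 4 mice), the housekeeper GAPDH (-0.27) and the monocyte receptor CD14 (-0.16). CD8a was positive with CD31 in the other 3 sets, at 0.36, 0.57 and 0.32, and the difference between sets was not tested. In the leptomeninges of IgG mice the lowest were CD28, a co-stimulatory receptor of T cells (-0.14), CD163 (-0.12) and GAPDH (-0.09). On penetrating vessels they were FOXP3, a transcription factor of regulatory T cells (-0.39), PanCk (-0.29) and CD28 (-0.16) in IgG mice, and GAPDH (-0.31), BatF3 (-0.25) and Ly6G/Ly6C (-0.22) in 3D6 mice.

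Fibronectin, a protein of the extracellular matrix, had an r with CD31 of 0.41, 0.13, 0.26 and 0.25 in the leptomeninges of IgG and 3D6 mice and on penetrating vessels of IgG and 3D6 mice. CD45, carried by all leukocytes, had an r with CD31 of 0.17, 0.01, 0.04 and 0.34 in the same order. Both were positive in 10 of 14 sets of mouse and site. In the leptomeninges of 3D6 mice CD45 was higher than in IgG mice by 2.46 and passed, as did 2 of 7 myeloid proteins and 0 of 8 T cell proteins, beside 20% of all 25 proteins. CD31 differed there by 0.95, and the part of leukocytes in the CD31 signal was not tested.

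CD34 had a different set of partners. SMA was among the 3 lowest of 27 proteins by r with CD34 in 3 of the 4 sets. The r of CD34 with SMA was -0.26 and -0.12 in the leptomeninges of IgG and 3D6 mice, and 0.13 and -0.17 on penetrating vessels, with 7 of 14 sets of mouse and site positive. It turned to 0.20 and 0.40 in the leptomeninges of IgG and 3D6 mice with division by the housekeepers.

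BatF3, a transcription factor of dendritic cells, was among the 3 highest with CD34 in all 4 sets. Its r with CD34 was 0.71 and 0.64 in the leptomeninges of IgG and 3D6 mice and 0.70 and 0.48 on penetrating vessels. It was positive in 14 of 14 sets of mouse and site, from 0.16 in the leptomeninges of IgG mouse 37 to 0.91 on penetrating vessels of IgG mouse 49, with a median of 0.61. CD31 had r values with BatF3 of 0.09, -0.002, 0.23 and -0.25 in the same order and a median of -0.10. With the negative controls held constant, the r of CD34 with BatF3 was 0.67 and 0.70 in IgG mice (leptomeninges, then penetrating vessels). In 3D6 mice it fell to 0.45 and 0.32.

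The 3 housekeepers differed in their relation to CD34. The ribosomal protein S6 had an r with CD34 of 0.73 and 0.49 in the leptomeninges of IgG and 3D6 mice and 0.69 and 0.33 on penetrating vessels, and was positive in 13 of 14 sets of mouse and site. For CD31 with S6 these were -0.01, 0.06, 0.29 and -0.11. GAPDH was positive with CD34 in 12 of 14 sets and with CD31 in 3 of 14, whereas Histone H3 was positive with CD34 in 10 of 14 and with CD31 in 11 of 14. With the housekeepers held constant, the r of CD34 with BatF3 fell to 0.21 and 0.27 in IgG mice (leptomeninges, then penetrating vessels), and was 0.53 and 0.37 in 3D6 mice. The r of CD34 with CD11b in IgG mice went from 0.55 to 0.51 in the leptomeninges and from 0.55 to -0.13 on penetrating vessels, and in 3D6 mice from 0.04 to -0.24 and from 0.58 to 0.52.

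**Figure D5:**
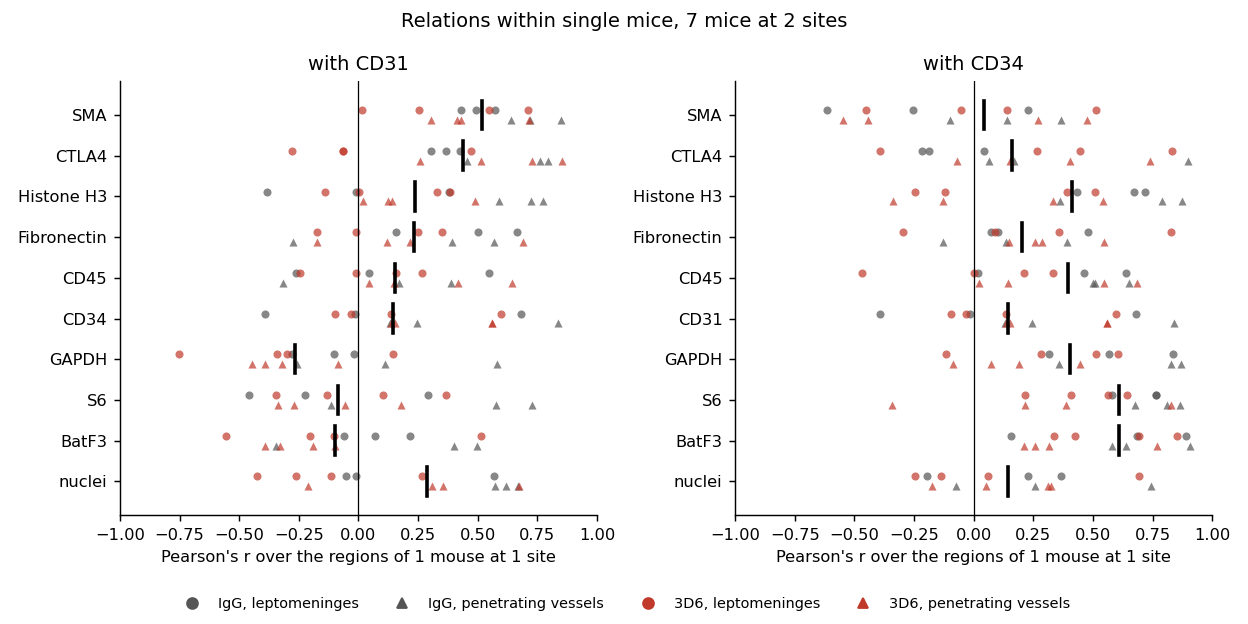
Pearson's r of CD31 (left) and CD34 (right) with selected proteins and the number of nuclei over the regions of 1 mouse at 1 site. Circles are leptomeninges and triangles penetrating vessels, grey IgG and red 3D6, and black bars give the median of the 14 values. SMA is positive with CD31 in 14 of 14 and with CD34 in 7 of 14, while BatF3 is positive with CD34 in 14 of 14 and with CD31 in 5 of 14.

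Beyond these, the 3 highest with CD34 included GZMB, the granzyme of cytotoxic lymphocytes (0.66), in the leptomeninges of IgG mice and CD14 (0.49) in those of 3D6 mice. On penetrating vessels they were PD-L1, an inhibitory ligand of T cells (0.74), and Histone H3 (0.71) in IgG mice, and the integrins CD11b (0.58) and CD11c (0.51) in 3D6 mice. CD11b, carried by myeloid cells, had an r with CD34 of only 0.04 in the leptomeninges of 3D6 mice and of 0.55 at both sites of IgG mice.

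The lowest values for CD34 apart from SMA were small. In the leptomeninges they were CTLA4 (-0.12) and PanCk (0.09) for IgG, and CD4 (-0.14) and CD45 (-0.07) for 3D6. On penetrating vessels they were FOXP3 (-0.16), CD28 (-0.06) and CD163 (-0.02) in IgG mice and Ki-67 (-0.03) and PanCk (-0.003) in 3D6 mice. Fibronectin had an r with CD34 of 0.23, 0.10, 0.17 and 0.27 in the leptomeninges of IgG and 3D6 mice and on penetrating vessels of IgG and 3D6 mice, and CD45 of 0.29, -0.07, 0.52 and 0.38. The median r over the 24 other targets was 0.33 for CD34 and 0.07 for CD31.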

How the data were processed

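Protein abundance came from the GeoMx platform: antibodies bear DNA tags, which are cut off by ultraviolet light over 1 region at a time and counted. The deposited signal values are digital counts that the authors had multiplied by hybridization and calibration factors, so they are not whole. A table that the authors had scaled to scores was not used, and a further mouse removed by the authors is not analysed here. Each count was divided by the geometric mean of 3 negative controls (Rt IgG2a, Rt IgG2b, Rb IgG) and log2 transformed without a pseudocount, then averaged per mouse and site. Groups were compared on mouse means in limma 3.58.1 (R 4.3.3). The p-values were adjusted over the 25 targets by Benjamini-Hochberg, and 0.05 was the threshold. Exact permutation tests covered 35 splits of the mice and 128 sign patterns within mice, two-sided, in Python 3.11.15 with numpy 2.4.6. The 9 tests of ratios were adjusted together. Regions were entered with the mouse as a block only as an alternative. The members and lists were chosen with earlier results of these data known. Besides CD31 and CD34, the text names SMA, fibronectin, CD45 and the 3 proteins with the highest and the lowest r in each set, together with BatF3, S6, GAPDH, Histone H3, CTLA4, CD8a and CD11b, whose values in further sets were added after they were seen. The tests were checked on simulated data. Alternatives covered scaling, averaging, filters, run and each mouse.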

Additional observations from a re-analysis of the deposited data

How the results depend on the processing

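Of 168 alternative values of the differences tested in limma, 138 kept their direction and their side of the threshold and 17 changed sign. The sign changed in 5 of 108 alternatives for ratios and in 16 of 200 for correlations, which have no threshold here. The CD31 difference in the leptomeninges (0.95) passed with Rb IgG alone as the divisor (1.28, adjusted p = 0.0282 from limma). With that divisor 10 of the 25 proteins passed as higher and 1 as lower, against 4 and 1 in the main setting. Rb IgG itself differed there by -0.94 between 3D6 and IgG mice (exact permutation test, p = 0.0286). The CD31 difference also passed with regions entered and the mouse as a block (0.95, adjusted p = 0.0444 from limma) and without 3D6 mouse 72. It ranged from 0.76 to 1.24 when 1 mouse was left out. On penetrating vessels CD31 turned to 0.15 with Rb IgG alone, 0.066 with arithmetic means and 0.0012 with the run as a block, and ranged from -0.43 to 0.23 when 1 mouse was left out. The treatment difference between the sites passed with regions entered and the mouse as a block for CD31 (1.03, adjusted p = 0.000355 from limma) and CD34 (0.59, adjusted p = 0.0208 from limma). That fit has no term for the mouse at each site. For CD34 it was -0.32 with the housekeepers.

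The higher CD31 of the leptomeninges missed the threshold without normalization (0.70), with Rt IgG2b alone (0.56), without regions of few nuclei (0.46), with the run as a block (0.62) and without moderation of variances (0.66). It was larger with the housekeepers (1.18, adjusted p = 0.00011 from limma) and with Rt IgG2a alone (0.88, adjusted p = 0.00371 from limma), and ranged from 0.46 to 0.74 when 1 mouse was left out. CD34 in the leptomeninges turned to -0.67 with the housekeepers, -0.44 without normalization and -0.21 with Rt IgG2a alone, and ranged from -0.40 to 0.53 when 1 mouse was left out. CD34 between the sites turned to 0.47 with the housekeepers and 0.17 with Rt IgG2a alone, with a range of -0.24 to 0.13. On penetrating vessels CD31 over SMA was 0.0142 without regions of few nuclei. When 1 mouse was left out it ranged from -1.16 to 0.32, CD34 over SMA from -1.67 to 0.0067 and CD31 over CD34 from -0.0438 to 0.56. The r of CD31 with CD34 moved to 0.51 in 3D6 leptomeninges when divided by the housekeepers and to 0.92 without normalization on penetrating vessels of IgG mice. The cause of these changes was not tested. The relations with SMA and BatF3 under other settings, and those with the housekeepers held constant, were chosen after seeing the data.

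The 2 sites were paired within each mouse. Between the treatment groups no paired analysis was possible because the IgG and 3D6 mice share no mouse numbers. Pairing by mouse could not be fitted there. The 3 runs each hold mice of both groups and served as a block instead, where CD31 in the leptomeninges differed by 0.95 (adjusted p = 0.125 from limma) and CD34 by 0.30 (adjusted p = 0.652 from limma). With 3 against 4 mice an exact permutation test cannot give a p under 0.029, and with 1 or 2 mice per group in a run the within-run values carry no test. All mice of a group also share the dose and isotype of their antibody. The precision is limited by the number of mice and not by the 166 regions, whose values within a mouse are correlated (0.326 in the leptomeninges and 0.273 on penetrating vessels).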

Other observations

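In 5 penetrating regions of IgG mouse 37 the negative controls reached 503.7 to 1429.2 counts, beside a median of 14.6 over all regions. CD31 counts there were 5291.8 to 16110.2 and CD34 counts 4976.3 to 14026.2, the highest of the series for both proteins. As log2 ratios to the negative controls the same regions spanned only 3.39 to 3.49 for CD31 and 3.22 to 3.51 for CD34. SMA in these regions ran from 2.25 to 4.24 on that scale.

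On penetrating vessels of 3D6 mouse 72, region 20 held the highest CD31 of that mouse (log2 ratio 5.93) together with its highest SMA (10.10), while its CD34 was 3.30. Region 23 of the same mouse held its highest CD34 (5.40), with CD31 of 4.56 and SMA of 3.15.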
